A study of Mus musculus with 6 samples.

Results

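Myogenic cells of Day 2 "digits in a dish" (DID) cultures were taken as the cells in which *Myod1* and *Myog*, 2 transcription factors of the muscle lineage, together had at least 5 UMIs, and were thus selected on those measured counts. A UMI (unique molecular identifier) marks a single captured RNA molecule. The rule was applied to the Day 2 libraries after barcodes with under 3000 UMIs, over 7500 detected genes or over 25% mitochondrial UMIs had been set aside. It left 484 myogenic cells of 18691, or 2.59%, with 310 of 8949 in replicate A and 174 of 9742 in replicate B. The other 18207 Day 2 cells are the comparison, and all 6 libraries of the series held 54126 cells within the same limits. DID cultures were wildtype CD-1 distal forelimb mesenchyme taken from mouse embryos at E11.5, pooled, dissociated with trypsin and collagenase, passed through a mesh and plated in medium with serum, with 2 independent cultures captured at each of Day 2, Day 7 and Day 10. No sort or transgene marked the muscle lineage, so a member is known only by its RNA. The pooled limbs come from an unstated number of embryos. With only 2 libraries, p-values rest on how far a difference between classes varied between them, a spread mostly shared across genes. Among the members, 69 had at least 1 UMI of *Myf5* and 415 had none.

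Limb muscle does not come from the limb mesenchyme itself. Its precursors leave the somites, migrate into the limb bud with Pax3, Lbx1 and the receptor Met active, and divide there under Notch signals. *Myf5* and *Myod1* commit these cells to the muscle fate, *Myog* drives them out of division and into differentiation, and the resulting myocytes make sarcomere proteins, assemble receptors for the motor nerve and fuse into fibres. The 4 factors *Myf5*, *Myod1*, *Myog* and *Myf6* bind the short DNA word CANNTG, the E-box, and CAGCTG is a form of it found beside many muscle genes.

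Promoters of 4 genes the results return to are printed below because they show this word next to genes that the members used, and each run is the 250 bases before the RefSeq start site on GRCm38.p6, written 5′ to 3′. Capitals mark CAGCTG in *Chrna1* and *Chrng*, subunits of the acetylcholine receptor of muscle, and in *Des*, the muscle intermediate filament protein desmin. In *Myog* capitals mark CANNTG.
Chrna1 promoter, chr2:73580339-73580588, minus strand: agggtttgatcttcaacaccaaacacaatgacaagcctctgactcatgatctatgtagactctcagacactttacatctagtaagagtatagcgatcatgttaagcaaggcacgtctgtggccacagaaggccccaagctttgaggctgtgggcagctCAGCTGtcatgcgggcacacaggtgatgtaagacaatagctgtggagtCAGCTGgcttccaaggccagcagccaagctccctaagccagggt
Chrng promoter, chr1:87205561-87205810, plus strand: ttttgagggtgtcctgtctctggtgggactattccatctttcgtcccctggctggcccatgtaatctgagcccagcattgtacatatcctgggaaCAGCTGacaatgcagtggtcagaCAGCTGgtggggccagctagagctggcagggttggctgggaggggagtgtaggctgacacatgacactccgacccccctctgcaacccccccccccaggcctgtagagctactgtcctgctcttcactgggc
Des promoter, chr1:75360042-75360291, plus strand: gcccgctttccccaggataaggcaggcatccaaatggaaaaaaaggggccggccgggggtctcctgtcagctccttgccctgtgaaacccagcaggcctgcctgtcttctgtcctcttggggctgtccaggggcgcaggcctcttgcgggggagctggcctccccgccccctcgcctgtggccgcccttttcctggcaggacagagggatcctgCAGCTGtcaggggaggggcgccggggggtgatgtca
Myog promoter, chr1:134289754-134290003, plus strand: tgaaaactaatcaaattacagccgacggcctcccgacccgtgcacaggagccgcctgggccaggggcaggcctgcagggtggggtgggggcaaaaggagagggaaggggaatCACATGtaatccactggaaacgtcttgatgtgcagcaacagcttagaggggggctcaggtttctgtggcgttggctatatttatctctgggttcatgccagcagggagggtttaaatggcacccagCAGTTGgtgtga
In *Chrna1* the 2 matches began 92 and 44 bases before the start, in *Chrng* 155 and 132 bases and in *Des* 36 bases. The *Myog* promoter held no CAGCTG but 2 other E-boxes, at 138 and 12 bases. The start of *Myog* in the GENCODE annotation, given below, lies within the printed run and before the box at 12 bases. That box is thus upstream of the RefSeq start only. CAGCTG reads the same on both strands, every CAGCTG is also a CANNTG, and a gene counted when any of its promoters held the word. Of the 33 sarcomere genes described below, 25 had a promoter in the RefSeq table and 11 of these (44%) held CAGCTG. The same was true of 6 of 12 (50%) genes of excitation and the synapse, of 4 of 8 (50%) of muscle metabolism, of 1 of 7 (14.3%) of fusion and adhesion, of none of 8 S phase genes, of none of 8 mitosis genes and of none of 10 limb mesenchyme markers. Among all 27025 genes of the table the share was 14.7%, and 69.3% held some CANNTG. A match is a description of the sequence and shows no binding.

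Both factors that chose the cells were usually present together, which is a description and was not tested. Replicate A had 295 of 310 members with a UMI of each factor, 11 with *Myod1* alone and 4 with *Myog* alone. In replicate B these were 165 of 174, 7 and 2. The median member held 10.5 *Myod1* UMIs in replicate A and 11 in replicate B, and 27 and 22.5 *Myog* UMIs. *Myod1* (ENSMUSG00000009471, chromosome 7 from 46376474 to 46379099, GRCm38) stood at 467 and 458 CPM in the members of replicates A and B, where CPM is UMIs per 1000000 UMIs of the summed class after TMM scaling. Other cells had 0.650 and 1.23 CPM. *Myog* (ENSMUSG00000026459, chromosome 1 from 134289989 to 134292548) stood at 1161 and 1089 CPM against 0.923 and 1.78 CPM. The rule itself fixes this gap, and within each class the 2 cultures are given side by side.

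**Figure D1:**
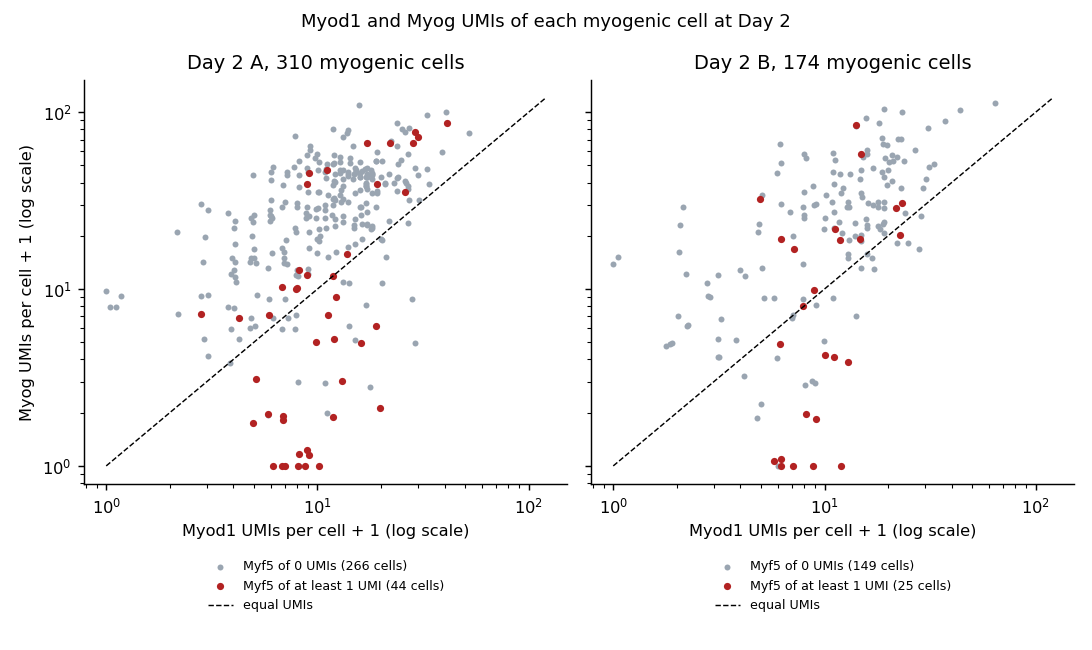
Each point is a myogenic cell, with its *Myod1* UMIs + 1 on the horizontal and its *Myog* UMIs + 1 on the vertical log axis, in red where *Myf5* had at least 1 UMI; points are spread slightly to separate equal counts. Most cells lie above the dashed line of equal UMIs (262 of 310 in replicate A and 138 of 174 in replicate B), and the red points fall on both sides of it.

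Cells near the limit of 5 UMIs were few in replicate A and, relative to the members, more common in replicate B. Of the members, 278 of 310 and 149 of 174 had at least 10 UMIs of the factors, 32 and 25 had 5 to 9, and 28 and 39 cells just outside had 3 or 4. In replicate A the median *Tnnt1* count, of slow troponin T, was 21.5 UMIs just outside, 36 just inside and 72.5 at 10 UMIs or more, and in replicate B it was 10, 17 and 81. These outside cells had a median of 28641 UMIs in replicate A but 5960 in replicate B, so in replicate B they were shallow cells. The cells just inside had medians of 27057 and 11097 UMIs, against 24747.5 and 29562 at 10 factor UMIs or more. The limit on detected genes removed 40 and 12 barcodes with at least 5 UMIs of the factors, and the limit of 3000 UMIs removed 1 in each library.

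The share of myogenic cells was 3.46% in replicate A (exact binomial 95% interval 3.09 to 3.86%) and 1.79% in replicate B (1.53 to 2.07%). These intervals cover counting error only. Replicate B held many more shallow cells, with a median of 12586 UMIs in its other cells against 19204 in replicate A. Among cells with at least 10000 UMIs the shares were 3.85% (3.44 to 4.30%) and 2.90% (2.47 to 3.37%). With 1 share per culture the spread between cultures cannot be set apart from depth or from the cells themselves, and no difference was tested. Members had medians of 25134.5 and 28932 UMIs, above those of the other cells in both libraries. Their median ribosomal share was higher too, at 30.1 and 30.8% of UMIs against 23.6 and 22.9%, as was the mitochondrial share, at 2.20 and 2.72% against 1.85 and 2.20%. A limit of 35% ribosomal UMIs left 262 of the 310 and 150 of the 174 members. Of all cells it left 8802 of 8949 and 9653 of 9742, so it removed a larger part of the members than of the cells in general. What part these differences have in the results below was not tested beyond the fits under that limit.

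Of the 4 markers of the label, *Myod1* and *Myog* chose the cells, so their presence was fixed by the rule. *Tnnt1* and *Myf5* were both higher in the members, although 415 of the 484 had no *Myf5* UMI. *Tnnt1* was at 3351 and 3812 CPM against 14.4 and 21.1 CPM in other cells (log2 fold change 7.68 ± 0.10, adjusted p = 1.0e-27, by edgeR's quasi-likelihood fit, Benjamini-Hochberg over 16815 genes). After every cell was thinned to 3000 UMIs, a *Tnnt1* UMI remained in 97.1% and 98.3% of the members and in 2.10% and 5.71% of the other cells. Before thinning the shares were 99.7% and 100% against 8.20% and 10.4%. *Myf5* was at 15.8 and 14.3 CPM against 1.90 and 2.03 CPM (2.95 ± 0.20, adjusted p = 2.0e-12), and *Myf6*, the late member of the family, had a UMI in 11 of 310 and 1 of 174 members.

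Markers of other cell types were low in the members. The 12 limb mesenchyme markers summed to 208 and 146 CPM (here and for all list sums without TMM scaling) against 1119 and 1107 in the other cells, and all 12 were lower (median log2 fold change -2.59). *Prrx1*, a homeobox factor of limb mesenchyme, was at 91.1 and 64.0 CPM against 438 and 446 CPM (-2.51 ± 0.10, adjusted p = 5.3e-17). The 6 cartilage markers summed to 243 and 136 CPM against 1669 and 1852 and were also all lower, *Sox9*, the master factor of cartilage, by 3.19 on the log2 scale. Of the 4 tendon markers 3 were lower, and *Kera* did not pass the test (-0.80 ± 1.64, adjusted p = 0.71). All 6 macrophage markers were at 0 UMIs in the members of replicate A and 5 of 6 in replicate B, where the list summed to 1 UMI. The 5 endothelium markers summed to 5 and 2 UMIs, the 4 erythroid markers to 3 and 7 and the 4 ectoderm markers to 3 and 1. None of the 4 tested endothelium markers passed in either direction. All 4 erythroid and all 3 tested ectoderm markers were lower. Mesenchyme RNA was spread unevenly over the members, and 53 of 310 and 26 of 174 had at least 0.25 times the median mesenchyme share of the other cells. No doublet caller was run. Without these cells all 33 sarcomere genes stayed higher (median log2 fold change 8.79). At folds of this size that fit could hardly show otherwise, and whether members were mixed cells was not tested.

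**Figure D2:**
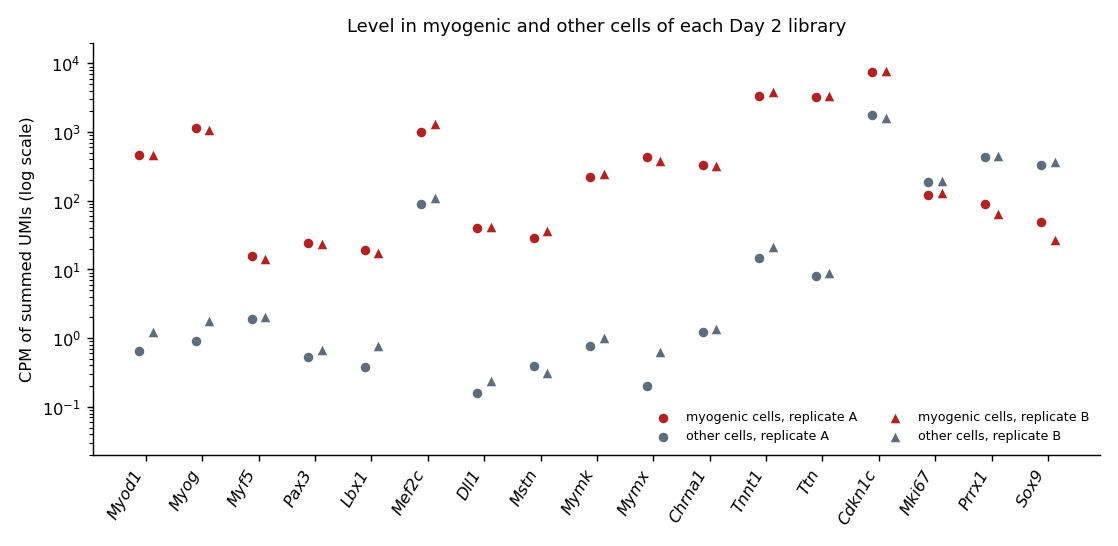
CPM on a log axis for 17 genes, in red for the myogenic cells and in grey for the other cells, with circles for replicate A and triangles for replicate B. For each gene the 2 libraries lie close together, the myogenic cells are higher from *Myod1* to *Cdkn1c*, and they are lower for *Mki67*, *Prrx1* and *Sox9*; *Myod1* and *Myog* chose the cells.

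Against the other Day 2 cells, 4368 of 16815 genes (26%) were higher in the members and 4510 (26.8%) lower. Every list below is read beside that background, in which the median log2 fold change was -0.07. Of the 8878 called genes 8866 had the same sign in both libraries. The calls were made on these same 2 libraries, so that agreement is largely built in. The class of a cell was set by *Myod1* and *Myog*, so the tests below leave out both genes.

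Factors of the migrating precursor were mostly higher in the members. Of 16 such genes 12 were higher, 2 lower and 2 passed in neither direction (median 2.07). *Pax3*, the factor that starts the limb muscle lineage, was at 24.6 and 23.1 CPM against 0.524 and 0.663 CPM (5.35 ± 0.22, adjusted p = 1.0e-16), and a UMI of it was found in 102 of 310 and 61 of 174 members. *Lbx1*, needed for the migration of these precursors, was at 19.4 and 17.6 CPM against 0.385 and 0.766 CPM, a log2 fold change of 5.09 ± 0.26. *Pax7*, the factor of the later precursor pool, was found in fewer members, with a UMI in 17 and 14. Its level was 4.34 and 6.82 CPM, against 1.02 and 1.09 CPM over all other cells (2.36 ± 0.30). More cells with *Pax7* lay outside the rule than inside it, with a UMI in 67 of 8639 and 66 of 9568 other cells. At least 3 UMIs were held by 32 and 27 other cells and by 3 and 5 members, so *Pax7* was not particular to the members. *Tbx1* (4.77 ± 0.37), the chemokine receptor gene *Cxcr4* (3.59 ± 0.36), *Msc* (2.64 ± 0.20), *Met* (2.42 ± 0.21) and *Eya1* (1.79 ± 0.20) were higher as well. *Six4* did not pass (0.07 ± 0.11, adjusted p = 0.62). The 2 lower genes were *Lhx2* (-3.09 ± 0.25) and *Meox2* (-2.28 ± 0.20), with 14.1 and 14.8 CPM and with 13.1 and 17.0 CPM in the other cells.

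Cofactors of the muscle factors split. *Mef2c*, the partner of *Myog* at muscle genes, was at 1019 and 1307 CPM against 89.4 and 108 CPM (3.55 ± 0.08, adjusted p = 7.8e-23). *Smyd1* (8.64 ± 0.09) and *Rbm24* (7.98 ± 0.12), a muscle methyltransferase and a muscle splicing factor, were among the 9 of 16 that were higher, with *Hes6* at 610.4 and 585 CPM against 25.9 and 22.8 CPM. Among the 4 lower were the 3 inhibitors *Id1* (-0.86 ± 0.07), *Id2* (-0.55 ± 0.08) and *Id3* (-0.64 ± 0.07), which bind the E-proteins that *Myod1* needs. *Tcf12*, an E-protein gene, was higher (1.19 ± 0.08), and *Tcf3*, another E-protein gene, did not pass (-0.13 ± 0.06, adjusted p = 0.099).

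Genes of the contractile apparatus had the highest median of the lists. The 33 sarcomere genes summed to 32892 and 32399 CPM in the members and to 2514 and 2426 in the other cells, and all 33 were higher (median log2 fold change 8.61). *Ttn*, the giant spring protein titin, was at 3208 and 3385 CPM against 8.05 and 8.83 CPM (8.61 ± 0.09, adjusted p = 1.9e-29). *Actc1*, the actin first made in embryonic muscle, was at 6185 and 5884 CPM against 8.83 and 14.0 CPM (9.08 ± 0.14), and *Acta1*, the adult skeletal actin, at 1373 and 1593 CPM against 6.78 and 5.90 CPM. Among the myosin heavy chains, the embryonic form *Myh3* was at 882 and 1015 CPM, the perinatal form *Myh8* at 48.7 and 64.5 CPM and the slow form *Myh7* at 34.8 and 57.2 CPM, all higher than in other cells (9.71 ± 0.14, 8.62 ± 0.17 and 7.27 ± 0.18). *Des*, whose promoter is printed above, was at 704 and 697 CPM against 7.69 and 7.26 CPM (6.55 ± 0.09). *Tpm1*, a tropomyosin also made outside striated muscle, differed least (0.37 ± 0.06) and lost its call without the upper limit on detected genes. *Acta2*, the smooth muscle actin, was the 1 of 5 smooth-muscle-type contractile markers that was higher (1.19 ± 0.07), and *Tagln*, *Cnn1*, *Myl9* and *Igfbp7* were lower, *Tagln* at 1007 and 744 CPM against 1689 and 1510 CPM.

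Genes of excitation and of the nerve-muscle synapse were on at Day 2. Of 21, 20 were higher, and *Ryr3* did not pass (1.57 ± 0.81, adjusted p = 0.11). *Chrna1*, whose promoter is printed above, was at 329 and 325 CPM against 1.25 and 1.37 CPM (7.97 ± 0.11, adjusted p = 5.2e-27), and *Chrng*, the embryonic receptor subunit, at 78.8 and 92.2 CPM against 0.211 and 0.282 CPM (8.44 ± 0.12). *Rapsn*, which clusters the receptor, was at 153 and 163 CPM. The calcium release channel gene *Ryr1* was at 59.2 and 63.4 CPM (6.09 ± 0.12) and *Casq2*, the calcium store protein, at 122 and 137 CPM (9.60 ± 0.10). *Ckm*, the muscle creatine kinase typical of mature fibres, stayed low at 3.44 and 3.96 CPM, while the other cells had 4 and 2 UMIs in all.

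The sum of the sarcomere list varied widely among the members themselves. It ran from 1381 to 115663 CPM in single cells of replicate A, with a median of 21592, and from 1128 to 120363 in replicate B, with a median of 17093. Above 50000 CPM lay 82 of 310 and 42 of 174 members, and 47 and 27 of these held at least 1 UMI of the mitosis list. The share of such UMIs that comes from free RNA of other cells was not measured, so they are not read as division. The other cells had a median of 1234 CPM in replicate A. The list includes *Tpm1*, also made outside striated muscle, so low sums need not be RNA of muscle alone.

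Genes of muscle metabolism were higher in 11 of 12 cases. *Mb*, the oxygen-binding protein myoglobin, was at 87.9 and 95.1 CPM against 0.112 and 0.0978 CPM (9.74 ± 0.14, adjusted p = 5.4e-27), and *Eno3*, the muscle enolase, at 211 and 165 CPM against 22.8 and 20.9 CPM (3.10 ± 0.09). *Cryab*, a small heat shock protein that protects filaments, was at 394 and 390.2 CPM against 30.7 and 19.4 CPM. The imprinted RNAs went opposite ways, *Meg3* being higher (1.02 ± 0.07) and *H19* lower (-0.44 ± 0.07), although *H19* was abundant in both, at 1204 and 1266 CPM against 1609 and 1745 CPM.

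The 17 genes of fusion and adhesion gave 10 higher and 5 lower. The fusion proteins stood out, with *Mymk* (myomaker) at 219 and 247 CPM against 0.767 and 1.02 CPM (8.04 ± 0.12, adjusted p = 1.2e-26) and *Mymx* (myomixer) at 428 and 381 CPM against 0.202 and 0.630 CPM (10.00 ± 0.21, adjusted p = 4.6e-23). *Cdh15*, the muscle cadherin, was at 156 and 160.2 CPM (7.09 ± 0.08), *Jam2* at 38.1 and 34.6 CPM (5.38 ± 0.16) and *Cav3*, the muscle caveolin, at 68.0 and 78.4 CPM (8.44 ± 0.13). *Cdh2*, the cadherin of mesenchyme, was lower (-1.37 ± 0.08), and *Vcam1* was at 3.06 and 2.42 CPM against 27.0 and 25.3 CPM (-3.22 ± 0.18).

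Of 11 tested genes of the Notch pathway 6 were higher, 3 lower and 2 passed in neither direction (median 0.47). The ligand *Dll1*, which signals to neighbouring precursors, was at 40.0 and 40.9 CPM against 0.161 and 0.239 CPM (7.68 ± 0.20, adjusted p = 2.2e-21), and *Jag2* was higher (3.64 ± 0.34) while *Jag1* was lower (-1.43 ± 0.19). *Megf10*, a receptor of muscle precursors, stood at 55.0 and 58.5 CPM (5.48 ± 0.12). *Heyl*, a Notch target in muscle, was higher (3.50 ± 0.23), as was the target *Hey1* (0.47 ± 0.14, a call lost with DESeq2 and at a minimum of 10 factor UMIs), while *Hes1* was lower (-0.76 ± 0.08), and *Notch1* (-0.11 ± 0.13, adjusted p = 0.49) and *Notch3* (0.09 ± 0.12, adjusted p = 0.55) did not pass. Of 14 genes of growth factor signals 6 were higher and 6 lower. *Mstn*, the brake on muscle growth, was at 28.8 and 36.8 CPM against 0.399 and 0.315 CPM (6.48 ± 0.21) and the cofactor *Vgll2* at 156 and 172 CPM against 0.435 and 0.576 CPM (8.35 ± 0.08). Of the FGF receptors, *Fgfr4* was higher (3.17 ± 0.13) and *Fgfr1* lower (-2.07 ± 0.10).

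Division genes were lower in the members, by less than 1 on the log2 scale. All 10 S phase genes (median -0.58) and 9 of 10 mitosis genes (median -0.53) were lower, *Ccna2* being the exception (-0.07 ± 0.06, adjusted p = 0.37). Without the upper limit on detected genes 8 S phase genes (median -0.45) and 6 mitosis genes (median -0.30) were lower, and at a minimum of 3 factor UMIs 8 S phase genes (median -0.36) were. *Mki67*, a protein of dividing cells, was at 122 and 129 CPM against 186 and 194 CPM (-0.59 ± 0.08, adjusted p = 1.0e-06). Thinned to 3000 UMIs, 15.8% (11.9 to 20.4%) and 23.0% (17.0 to 30.0%) of the members kept a *Mki67* UMI, against 26.8% (25.8 to 27.7%) and 30.1% (29.2 to 31.0%) of the other cells. The exact binomial intervals cover counting error over cells only and compare no replicates. Unthinned, these shares were 37.1% and 46.6% against 47.3% and 49.1%. Of 12 genes of cell-cycle exit and the RB family 6 were higher, 4 lower and 2 passed in neither direction (median -0.09). *Cdkn1c*, a cell-cycle inhibitor, was at 7565 and 7829 CPM against 1764 and 1624 CPM (2.18 ± 0.06, adjusted p = 4.6e-20), and *Rb1*, the retinoblastoma gene that blocks entry into S phase, at 171 and 202 CPM against 11.5 and 11.4 CPM (4.01 ± 0.06). The inhibitor *Cdkn1b* (-1.09 ± 0.09) and the RB relative *Rbl1* (-0.75 ± 0.16) were lower, and *Cdkn2c* and *Rbl2* did not pass. *Rbl1* lost its call without the upper limit on detected genes. Among the D cyclins *Ccnd3* was higher (1.76 ± 0.08) while *Ccnd1* (-2.40 ± 0.10) and *Ccnd2* (-2.09 ± 0.09) were lower.

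**Figure D3:**
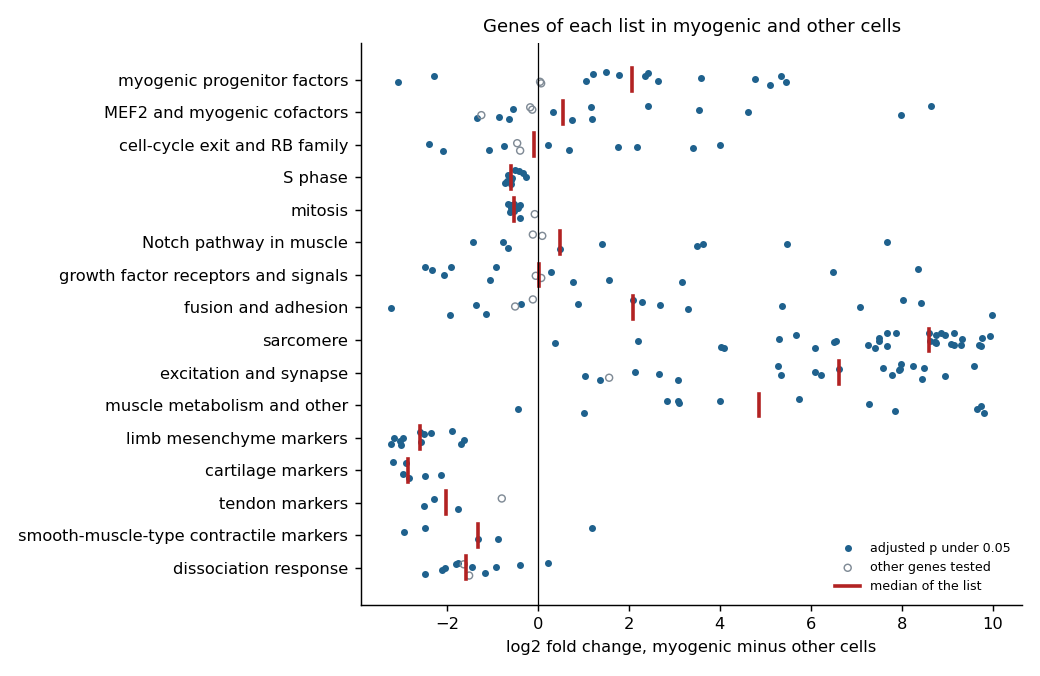
Log2 fold change of each tested gene, myogenic minus other cells, by gene list, filled where the adjusted p was under 0.05, with a red bar at the median of the list. The sarcomere list lies farthest to the right (median 8.61), the S phase and mitosis lists lie just left of 0 (medians -0.58 and -0.53), and of the 16 lists plotted the cartilage markers have the lowest median (-2.87).

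The largest log2 fold change among genes that reached 50 CPM in the members of both libraries belonged to *Cd3g* (ENSMUSG00000002033, chromosome 9 from 44969572 to 44980431), a chain of the T-cell receptor complex, with 511 and 259 UMIs in the members and 8 and 3 in all other cells. It stood at 65.2 and 57.0 CPM (11.09 ± 0.18, adjusted p = 1.6e-25). Whether these UMIs come from *Cd3g* transcripts or from a neighbouring or unannotated transcript was not tested, here and in both splits below. Of 6 other T-cell and leukocyte genes, looked at after the values were seen, *Cd3d* had 6 and 0 UMIs in the members and 18 and 17 in all other cells and *Cd3e* 0 and 1 against 0 and 1, both too few to test. *Ptprc* had 0 UMIs in the members of both libraries, *Cd247* 0 and 1, *Lck* 3 and 4 and *Trac* 2 and 2. *Ptprc* was lower in the members (adjusted p = 0.011), and *Cd247* (0.31), *Lck* (0.053) and *Trac* (0.87) did not pass. The next were *Myoz2*, a Z-disc protein (10.13), *Mymx*, *Sln*, the calcium pump regulator sarcolipin (9.96), *Tnnc2*, *Myl4*, *Lmod3*, *2310002L09Rik* (9.75), *Mb* and *Myh3*. The 10 lowest were led by *Apoe* (-3.47), *Mia* (-3.44) and *Eln* (-3.26) and included the cartilage genes *Sox9*, *Col11a1* and *Col9a3*. Of 5 glia and neural crest markers 2 were higher and 3 lower. *Foxd3*, a neural crest factor, had 20 and 25 UMIs in the members and 3 and 4 in all other cells, whereas *Sox10*, the defining glial factor, had none in the members. Of 12 genes induced by tissue dissociation 9 were lower, *Fos* at 129 and 94.4 CPM against 509 and 416 CPM, and *Btg2*, the only higher one (0.21 ± 0.07), lost its call under 6 of 11 alternative settings.

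Members were ordered by the balance of *Myog* to *Myod1*, a cut through a range of cells and not a border between cell types. More *Myog* than *Myod1* UMIs was counted in 262 of 310 and 138 of 174 members. Capture can differ between the 2 genes, so equal UMIs do not mean equal RNA. Against the remaining 48 and 36 members, 1466 of 10166 genes (14.4%) were higher in the *Myog*-rich members and 1378 (13.6%) were lower. All 33 sarcomere genes were higher, with a median log2 fold change of 2.51, and so were all 20 tested genes of excitation (median 1.67) and all 12 of muscle metabolism (median 2.11). *Ttn* was at 3466 and 3711 CPM against 635 and 1140 CPM (2.07 ± 0.09, adjusted p = 8.4e-19), and *Myh3* at 986 and 1143 CPM against 43.0 and 249.6 CPM (3.17 ± 0.22). *Tnnt1* differed less, at 3465 and 4002 CPM against 1294 and 1824 CPM (1.28 ± 0.07), and no library of either side came near the level of the other cells. Depth and markers of other cells differed between the sides as well, and their part in these results was not tested. The remaining members were deeper, with medians of 33357.5 and 32447 UMIs against 23945.5 and 26348. Their median summed mesenchyme list was 156 and 175 CPM, against 43.1 to 67.5 CPM in the classes with more *Myog*. Of 9 tested limb mesenchyme markers 2 were lower in the *Myog*-rich members, *Prrx1* (-0.48 ± 0.14, but 0.031 at a minimum of 10 factor UMIs) and *Asb4*, and 7 passed in neither direction (median -0.18). *Prrx1* also lost its call with DESeq2, without the library as block and without the upper limit on genes. None of 4 cartilage markers passed, the tendon gene *Mkx* was lower, and 3 of 5 smooth-muscle-type genes were higher, *Acta2* (0.77 ± 0.06), *Tagln* and *Myl9*. Without the members that carry mesenchyme markers all 33 sarcomere genes stayed higher (median 2.18). That fit reused the remaining members of the same libraries, so it does not test the part of those markers. The 2 libraries were unlike in the sarcomere genes, with a sarcomere sum of 7790 CPM in the 48 of replicate A and 13025 in the 36 of replicate B.

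Of 14 tested genes of fusion and adhesion 9 were higher on the *Myog*-rich side, 3 lower (*Cdh2*, *Nphs1* and *Dock1*) and 2 passed in neither direction (median 1.02). *Mymx* was at 477 and 450.1 CPM in the *Myog*-rich members and 26.2 and 29.2 CPM in the rest (4.08 ± 0.13, adjusted p = 1.1e-23). *Mymk* was at 245 and 277 CPM against 6.98 and 63.2 CPM (3.11 ± 0.24, adjusted p = 1.3e-12), with 1 library well above the other in the rest. *Mstn* was at 32.4 and 42.8 CPM against 0.581 and 4.86 CPM (3.94 ± 0.39), and *Mef2c* at 1121 and 1442 CPM against 117 and 411 CPM (2.49 ± 0.15). *Cd3g* went with this side too, at 71.3 and 68.5 CPM against 9.30 and 0.811 CPM (3.62 ± 0.30). Of 11 tested genes of cell-cycle exit and the RB family 4 were higher, 4 lower and 3 passed in neither direction (median -0.05). The higher ones were *Ccnd3*, *Cdkn1a*, an inhibitor of cyclin-dependent kinases, at 1215 and 1153 CPM against 299 and 286 CPM (2.02 ± 0.08), *Cdkn1c* (1.95 ± 0.05) and *Rb1* (1.74 ± 0.12). *Rbl1*, *Gas1*, *Ccnd1* and *Ccnd2* were lower, and *Cdkn1b* did not pass (-0.21 ± 0.26, adjusted p = 0.59).

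The remaining members were poor in *Myog* and not rich in *Myod1*, with medians of 9.5 and 8 *Myod1* UMIs against 11 and 12 in the *Myog*-rich ones. All 10 S phase genes (median log2 fold change -1.45) and all 10 mitosis genes (median -1.20) were lower in the *Myog*-rich members, *Mki67* at 83.3 and 82.8 CPM against 222 and 222 CPM (-1.42 ± 0.11, adjusted p = 7.4e-13). Of 14 precursor factors 8 were lower. *Pax7* was at 0.144 and 1.86 CPM against 19.2 and 19.5 CPM (-4.58 ± 0.50, adjusted p = 5.2e-09), *Msc* at 2.88 and 2.66 CPM against 37.2 and 50.3 CPM (-3.90 ± 0.30) and *Met* at 6.77 and 6.64 CPM against 25.6 and 21.1 CPM (-1.81 ± 0.30). *Myf5* itself was at 4.32 and 5.58 CPM against 54.7 and 35.7 CPM (-3.26 ± 0.28, adjusted p = 1.6e-11). *Pax3* did not pass (-0.33 ± 0.24, adjusted p = 0.34). Of 11 tested Notch genes 3 were higher, 4 lower and 4 passed in neither direction (median -0.64), and DESeq2 called 1 higher and 1 lower. The target *Hey1* was lower in the *Myog*-rich members (-2.07 ± 0.28). The target *Hes1* (-0.62 ± 0.10) and the receptor gene *Notch3* (-1.45 ± 0.26) were lower and the ligand *Dll1* higher (1.14 ± 0.25), calls that DESeq2 did not make, and *Dll1* lost its call at a minimum of 10 factor UMIs too.

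Among genes that reached 50 CPM, *Mymx* had the largest increase on the *Myog*-rich side, followed by *Tnnt2*, the cardiac troponin T also used in embryonic muscle, at 925 and 1135 CPM against 65.1 and 104 CPM (3.64 ± 0.10, adjusted p = 1.5e-24). *Tmem38a*, a potassium channel of the calcium store, was at 53.6 and 63.5 CPM against 3.49 and 6.48 CPM (3.59 ± 0.28), and *Olfml2b* at 70.6 and 82.8 CPM against 5.81 and 13.0 CPM (3.10 ± 0.24). The largest decrease was that of the protocadherin gene *Pcdh17*, at 19.7 and 17.8 CPM against 101 and 75.4 CPM (-2.24 ± 0.17, adjusted p = 1.0e-12). Of the next 9 decreases 4 were histone genes, *Hist1h3c* at 69.3 and 88.4 CPM against 292 and 301 CPM (-1.93 ± 0.11), *Hist1h3b*, *Hist1h2ae* and *Hist1h1a*. The others were *Cdca7*, *Zfhx3*, *Dtl*, *Mcm3* and *Atad2*, a chromatin ATPase of dividing cells, at 49.6 and 45.7 CPM against 162 and 145 CPM (-1.69 ± 0.13). Histone genes of these clusters are near-identical copies, and how their reads were assigned was not checked. With DESeq2 in place of edgeR the split called 401 genes higher and 238 lower, and 27 of the 33 sarcomere genes remained higher, with 14 of 21 excitation genes higher and 4 of 16 precursor factors lower.

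Cell by cell, the sarcomere sum was lowest where *Myog* did not exceed *Myod1*. With at most 50% of the factor UMIs on *Myog*, the median member had 5792 and 6243 CPM on the summed sarcomere list in replicates A and B. Over 50 to 65% it had 24950 and 14883, over 65 to 80% it had 29796 and 23992, and above 80% it had 26226 and 20928. The mitosis sum had medians of 1107 and 1126 CPM in the first class and of 58.4 to 136 in the other classes. Some mitosis UMI was also held by 72.4 to 87.2% of the members in the other classes, against 91.7% in the first in both libraries. With free RNA not measured, such a UMI alone is not read as division. Across members, Spearman's rho of the *Myog* share with the sarcomere sum was 0.38 in replicate A (310 cells) and 0.35 in replicate B (174 cells), and that of the sarcomere sum with the mitosis sum was -0.62 and -0.69. Cells of a library share its preparation, and both sums are shares of the same UMI total, so these are descriptions with no test.

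**Figure D4:**
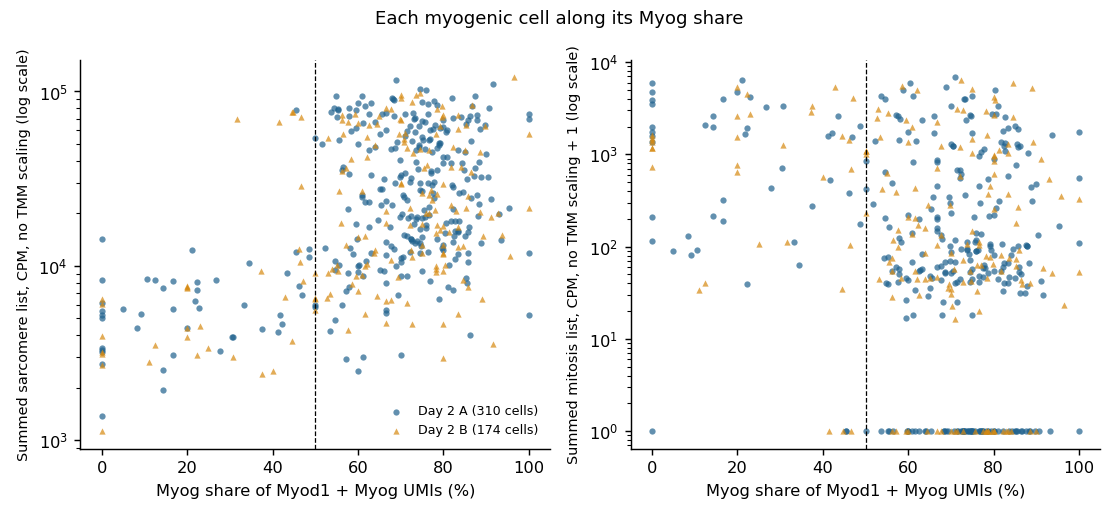
Each point is a myogenic cell, placed by the *Myog* share of its *Myod1* and *Myog* UMIs in percent, with the summed sarcomere list (left) and the summed mitosis list + 1 (right) in CPM without TMM scaling on log axes; blue circles are replicate A and orange triangles replicate B. Left of the dashed line at 50%, most sarcomere sums lie near the lower end (medians 5792 and 6243), and to its right they spread over a wide range up to 115663 and 120363.

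Splitting the members by *Myf5* gave 44 positive and 266 negative cells in replicate A and 25 and 149 in replicate B. A *Myf5* count was low where present, with exactly 1 UMI in 23 of the 44 and 10 of the 25 and at most 17 and 7. The positive members were deeper, with medians of 35418 and 33702 UMIs against 23896.5 and 26760, and low *Myf5* RNA and missed capture cannot be told apart in a single cell. Thinned to 3000 UMIs, a *Myf5* UMI remained in 2.58% (1.12 to 5.02%) and 3.45% (1.28 to 7.35%) of the members and in 0.509% and 0.470% of other cells. By description, *Myod1* was at 298 and 276 CPM in the positive members and 447 and 439 CPM in the negative ones, and *Myog* at 453 and 413 CPM against 1181 and 1096 CPM. More *Myog* than *Myod1* was counted in 20 of 44 and 11 of 25 positive members and in 242 of 266 and 127 of 149 negative ones.

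In that split 574 of 10204 genes (5.63%) were higher in the *Myf5*-positive members and 579 (5.67%) lower, by the edgeR quasi-likelihood test. Of 10 S phase genes 9 were higher (median 0.71) and of 10 mitosis genes 9 (median 0.95), counts that fell to between 0 and 7 under 5 other settings given below, with *Top2a*, which untangles DNA for mitosis, at 435 and 505 CPM against 159.9 and 222 CPM (1.32 ± 0.10, adjusted p = 3.2e-21) and *Mki67* at 207 and 178 CPM against 86.4 and 102 CPM (1.06 ± 0.12, adjusted p = 3.1e-11). *Cdkn1c* was lower, at 3814 and 3245 CPM against 7489 and 7825 CPM (-1.12 ± 0.08, adjusted p = 1.8e-21), as were *Rb1* (-1.07 ± 0.13) and *Cdkn1a* (-0.69 ± 0.09). Of 11 tested genes of cell-cycle exit and the RB family these 3 were lower, *Rbl1*, *Ccnd2* and *Gas1* were higher and 5 passed in neither direction (median 0.01). None of this list was called at a minimum of 10 factor UMIs or without the upper limit on genes. Of 14 precursor factors 8 were higher, a count that other settings lowered, as given below. They were led by *Msc*, a repressor of *Myod1* activity, at 36.1 and 43.4 CPM against 3.26 and 7.91 CPM (2.95 ± 0.28, adjusted p = 7.8e-15), and *Pax7* at 16.6 and 14.5 CPM against 0.850 and 4.31 CPM (2.88 ± 0.45, adjusted p = 3.2e-07). *Pax3* did not pass, at 26.6 and 26.7 CPM against 21.0 and 19.4 CPM (0.39 ± 0.23, adjusted p = 0.34).

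In the reported fit differentiation genes were lower in the *Myf5*-positive members. Of 33 sarcomere genes 23 were lower and none higher (median -0.58), and of 20 excitation genes 11 were lower and none higher (median -0.58). At a minimum of 10 factor UMIs none of either list was called (medians -0.10 and -0.09). Other settings lowered the counts too, as given below. *Actc1* was at 3167 and 2925 CPM against 6110 and 5776 CPM (-0.96 ± 0.08, adjusted p = 3.0e-18) and *Tnnt1* at 2341 and 2450 CPM against 3161 and 3623 CPM (-0.50 ± 0.08). Of 13 tested genes of fusion and adhesion 6 were lower, *Cdh2* and *Dock1* were higher and 5 passed in neither direction (median -0.34), and at a minimum of 10 factor UMIs or without the upper limit on genes 1 was lower and none higher. *Mymx* was at 127 and 107 CPM against 445 and 392 CPM (-1.84 ± 0.11, adjusted p = 1.5e-26), *Mymk* at 111 and 110.2 CPM against 216 and 245 CPM (-1.04 ± 0.12) and *Mstn* at 10.6 and 13.4 CPM against 29.5 and 37.1 CPM (-1.47 ± 0.26). The lowest genes above 50 CPM were *Cd3g*, at 2.36 and 13.4 CPM against 71.8 and 59.2 CPM (-3.40 ± 0.29), and *Pnmt*, the enzyme that makes adrenaline, at 20.7 and 15.6 CPM against 209 and 156 CPM (-3.33 ± 0.18, adjusted p = 3.0e-30). The highest was *Pcdh17*, at 79.2 and 83.4 CPM against 25.1 and 20.4 CPM (1.81 ± 0.17, adjusted p = 5.3e-15). Of 11 tested Notch genes 3 were higher, 3 lower and 5 passed in neither direction, the target *Heyl* among the last. The targets *Hey1* (1.35 ± 0.28) and *Hes1* (0.52 ± 0.11) were higher and *Dll1* lower (-1.02 ± 0.22), and all 3 lost their call with DESeq2, at a minimum of 10 factor UMIs and without the upper limit on genes.

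Of 8 limb mesenchyme markers with enough UMIs to test, 1 was lower and 7 passed in neither direction (median -0.09). All 4 tested cartilage markers were lower (median -0.95), but none was called with DESeq2, without the library as block, at a minimum of 10 factor UMIs or without the upper limit on genes, where the median was -0.17 and 2 of 5 lay above 0. Lower too were all 5 smooth-muscle-type contractile genes, *Acta2* at 2239 and 1955 CPM against 3146 and 2916 CPM (-0.53 ± 0.08, adjusted p = 1.1e-07). Of these 5, DESeq2 called 2, the fit without the block 1, and the minimum of 10 and the missing upper limit none. Among the largest increases after *Pcdh17* were *Crym*, a thyroid hormone-binding protein, at 73.3 and 50.1 CPM against 25.1 and 17.3 CPM (1.54 ± 0.18), the large zinc-finger factor gene *Zfhx3* (1.30 ± 0.15) and the mitotic motor genes *Kif15* (1.25 ± 0.17) and *Kif11* (1.19 ± 0.17). Among the largest decreases were *Spg21*, at 70.9 and 69.0 CPM against 228 and 256 CPM (-1.77 ± 0.13), and *Rgs16*, a regulator of G-protein signals, at 17.1 and 17.8 CPM against 57.5 and 59.2 CPM (-1.74 ± 0.22). In the median cell, the sarcomere sum was 6221 and 7417 CPM with *Myf5* and 24546 and 20078 without, and the mitosis sum 832 and 729 against 72.1 and 112.

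The numbers of genes called in the *Myf5* split changed with the settings, and the reason was not tested. Thinning each member to 10000 UMIs before the split left 18 and 14 positive members and 83 genes higher and 120 lower. Of the lists, 18 of 30 sarcomere genes with a value (median -0.99) and 1 of 20 excitation genes (median -0.78) were then lower, and 2 of 10 S phase genes (median 1.21, all 10 above 0), 2 of 10 mitosis genes (median 0.56, 3 below 0) and 1 of 11 precursor factors (median 0.77) higher. Calls were thus lost while the medians, apart from that of mitosis, were as far from 0 as before or farther. *Mki67* lost its call. With at least 10 UMIs of *Myod1* and *Myog*, 4 genes were higher and 4 lower. None of 33 sarcomere genes (median -0.10), of 20 excitation genes (median -0.09), of 10 S phase genes (median 0.50) or of 14 precursor factors (median 0.57) passed then, and 2 of 10 mitosis genes did. DESeq2 called 15 sarcomere genes and 1 excitation gene lower and 2 S phase genes (median 0.71), 3 mitosis genes and 1 precursor factor higher. Without the upper limit on detected genes these were 6, 1, 0 (median 0.50), 2 and 2. Without members that carry mesenchyme markers 3 excitation genes were lower (median -0.36), and under the ribosomal limit 5 S phase genes were higher. Without the library as block 201 genes were higher and 225 lower, among them 16 sarcomere and 4 excitation genes, with 3 S phase genes (median 0.71), 7 mitosis genes and 6 precursor factors higher. In replicate A 27 of the 33 sarcomere genes had a log2 ratio below 0 and in replicate B all 33, while all 10 S phase genes were above 0 in each. Among the named genes of this split *Top2a*, *Mymx*, *Pnmt* and *Spg21* kept their calls under all alternatives that gave them a value. The others called and given with a fold lost the call under at least 1 setting, *Mki67* when thinned and the rest at the minimum of 10.

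**Figure D5:**
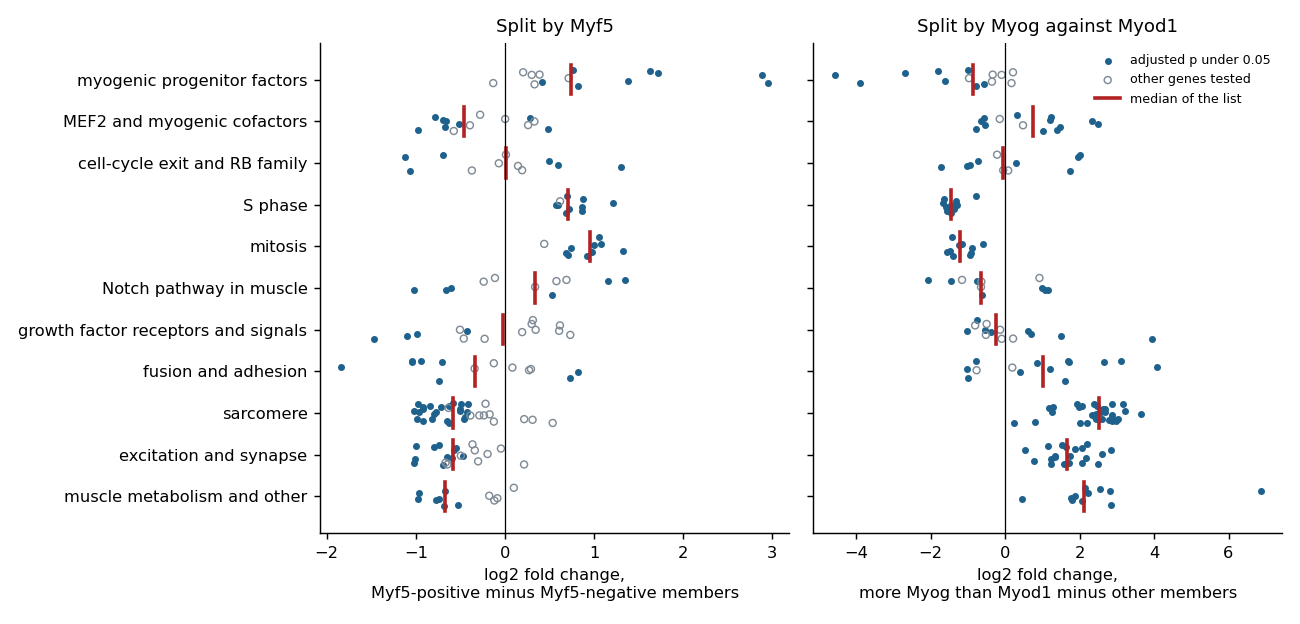
Log2 fold change of each tested gene by list for the split by *Myf5* (left, positive minus negative members) and by *Myog* against *Myod1* (right, *Myog*-rich minus other members), filled where the adjusted p was under 0.05, with a red bar at the median; the 2 horizontal axes differ in range and both splits use the same 484 cells. On the left the S phase and mitosis medians are above 0 (0.71 and 0.95) and the sarcomere median below 0 (-0.58), and on the right they are -1.45, -1.20 and 2.51.

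*Myf5* UMIs were also found outside the rule. Among the other cells, 151 and 147 had at least 1 *Myf5* UMI, and since the share that free RNA gives was not measured, single UMIs are not read as expression. At least 3, a limit set after the values were seen, were held by 55 and 50 of the other cells and by 14 and 12 members. The 55 and 50 were deep, with medians of 31053 and 35713.5 UMIs. *Pax7*, the precursor factor, had a UMI in 42 of 55 and 37 of 50 of them, *Myod1* in 21 and 29, and *Myog* in 5 and 3. Their median *Tnnt1* count was 21 and 27.5 UMIs, and *Mki67* was seen in 40 and 42. *Prrx1* was present in 44 of each. A limit on *Myod1* and *Myog* therefore leaves these *Myf5*- and *Pax7*-bearing cells among the other cells.

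Under the same rule the later cultures held few such cells. Day 7 gave 22 of 9355 cells in replicate A (0.235%) and 2 of 9373 in replicate B, and Day 10 gave 0 of 8350, which allows a share of up to 0.0359% as 3 counts of the total and 0.0442% as the exact 95% upper limit, and 3 of 8357. These counts moved with the cell limits. Without the upper limit on detected genes Day 10 gave 3 of 9009 and 6 of 9000 cells, and with at most 35% ribosomal UMIs, a limit the study set for Day 2 and not for Day 7, Day 7 replicate A gave 11 of 8085 (0.136%). The summed *Myh3* level (CPM without TMM scaling) was 983 in the 22 cells of Day 7 replicate A, 5464 in the 2 of replicate B and 1270 in the 3 of Day 10 replicate B, and *Mki67* had 3, 0 and 0 UMIs. With 2 and 3 cells the last levels are those of single cells.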

How the data were processed

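Droplet single-cell RNA-seq (10x 3′ chemistry, strand-specific) was made from DID cultures on Day 2, Day 7 and Day 10, 2 cultures each. The authors aligned reads with Cell Ranger 6.1.2, which uses STAR, to GRCm38, and the deposited values are raw UMI counts per gene and barcode. Their version of the gene annotation is not given in the sources used here. Their own cell filters in Seurat 4.1.0 included a ribosomal limit, 35% for both Day 2 libraries and looser for some later ones. Here 35% was run as an alternative on all libraries. The limits below are likewise the same for all days, where theirs were not. The members and gene lists were chosen with earlier results of these data known.

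Barcodes with at least 3000 UMIs, at most 7500 genes and at most 25% mitochondrial UMIs were kept. No doublet caller was run, and between 36 and 120 barcodes recur in any pair of libraries (62 in the Day 2 pair). Counts were summed per library and class (4 sums per comparison), filtered with filterByExpr and tested with the quasi-likelihood test of edgeR 4.0.16 (R 4.3.3) with TMM factors, the library as block and Benjamini-Hochberg adjustment. A gene was called at an adjusted p under 0.05. Folds are log2 with their standard error, taken as the fold divided by the square root of F. *Myod1* and *Myog*, and *Myf5* in its own split, were left out of the tests. The genes named are list members and the 10 highest and 10 lowest folds among called genes that reached 50 CPM in the class where they were higher, in both libraries, and others are named as chosen afterwards. With 4 sums each fit has 1 residual degree of freedom, so the spread rests on that shared across genes (prior degrees of freedom 23.2, 98.8 and 33.1 for the class, *Myf5* and *Myog* fits). Promoters came from the RefSeq table of GRCm38.p6 and gene positions from GENCODE on GRCm38, in which all 275 listed genes matched. Alternatives were other factors, DESeq2 1.42.0, no count filter, no block, other cell limits and thinning.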

Additional observations from a re-analysis of the deposited data

How the results depend on the processing

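Of the 141 gene results named with a test, 1454 of 1520 values under the alternatives kept their direction and side of the threshold, 60 lost the call, 5 gained it and 1 reversed, that of *Prrx1* in the *Myog* split (0.031 at a minimum of 10 *Myod1* and *Myog* UMIs). The losses were uneven. At that minimum 20 named genes of the *Myf5* split lost the call and 6 kept their side. Between members and other cells 1 lost it there and 82 kept their side. With DESeq2 1.42.0 in place of edgeR, 2987 genes were lower in the members than in the other cells. For the *Myf5* split DESeq2 called 71 genes higher and 125 lower, thinning to 10000 UMIs 83 and 120, a minimum of 10 *Myod1* and *Myog* UMIs 4 and 4, a minimum of 3 UMIs 976 and 1084, and no upper limit on genes, a setting chosen after seeing the data, 22 and 38. The prior degrees of freedom of that fit fell from 98.8 to 7.02 with the minimum of 10 and to 7.30 without the upper limit. Of the 574 genes higher in the reported fit, 553 of the 558 with a value pointed the same way at the minimum of 10. Those genes were called for that direction on largely the same cells, so the shared sign is largely built in and is no separate support. For the *Myog* split DESeq2 called 401 genes higher and 238 lower, the minimum of 10 gave 830 and 718, and no upper limit on genes 767 and 528. Both classes of a comparison come from the same library, so the library is the replicate block, and without the replicate block the *Myf5* split gave 201 genes higher and 225 lower and the *Myog* split 896 lower. The share of myogenic cells in replicate A was 2.98% under the ribosomal limit. In replicate B it was 2.90% among cells with at least 10000 UMIs, 1.53% and 2.19% at minimums of 10 and 3 *Myod1* and *Myog* UMIs, and 1.05% when cells from 1000 UMIs were counted. Shares of cells with a UMI rose with depth, that of *Myf5* in members from 2.58% and 3.45% at 3000 UMIs to 5.94% and 8.81% at 10000. Leaving out a replicate leaves 1 library per class and no test, so the log2 ratios of each library stand in its place. Causes were not tested. Genes with too few UMIs in the 4 sums fell below the count filter and were not tested.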
